A study of Mus musculus with 360 samples.

Results

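The 8 genes described here are Lgr5, Lgr6, Axin2, Wnt9a, Prox1, Fgfr3, Cntn1 and S100a1, chosen by symbol as genes of pillar and Deiters cells or of the Wnt response. All 8 have a row among the 48440 gene rows of the deposited matrix of exon counts. The matrix covers 360 single cells of mouse cochlea. Of these, 180 came from GAP mice (Fbxo2CreERT2::Rosa26-tdTomato::Rosa26-GAP), which carry Gfi1, Atoh1 and Pou4f3 on a Rosa26 allele, and 180 from control mice (Fbxo2CreERT2::Rosa26-tdTomato). Both genotypes share the tamoxifen-inducible Cre, expressed from the Fbxo2 locus, and the tdTomato reporter. Both received tamoxifen at 3 weeks of age, and their cochleae were dissociated with papain at 5 weeks. Cells were sorted singly by flow cytometry and sequenced by SMART-MATQ, a whole-transcript method with unique molecular identifiers (UMIs). The cell names carry a letter, C or D for GAP and A or B for control, read here as the plate. No animals are named, so each genotype is 1 sample, letter and genotype cannot be told apart, and no test between genotypes was made. Levels are given as CPM, the UMIs of a gene over all UMIs of the summed cells on the usual CPM scale, and 95% intervals on levels and ratios cover counting error only.

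Lgr5 and Lgr6 encode receptors for R-spondins, secreted proteins that keep Frizzled receptors at the cell surface and so raise Wnt signalling through beta-catenin. Axin2 encodes a scaffold of the complex that destroys beta-catenin and is itself switched on by the pathway, which makes it a common readout of Wnt activity, and Wnt9a encodes a Wnt ligand. In the mouse cochlea, Lgr5 marks supporting cells that can act as hair cell progenitors in the newborn, including Deiters cells, and Lgr6 marks a narrower set of supporting cells. Prox1 encodes a homeodomain protein of pillar and Deiters cells, and Fgfr3 a fibroblast growth factor receptor needed for pillar cells. Cntn1 encodes a contactin, a cell adhesion protein of the immunoglobulin superfamily, and S100a1 a small calcium-binding protein.

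On the mm10 build with the GENCODE M21 annotation, Lgr5 lies on the minus strand of chromosome 10 (115450311 to 115587780) and Lgr6 on the minus strand of chromosome 1 (134983301 to 135105276). Axin2 (108920349 to 108950783) and Wnt9a (59306928 to 59333552) lie on the plus strand of chromosome 11. Prox1 lies on the minus strand of chromosome 1 (190118035 to 190170714), Fgfr3 on the plus strand of chromosome 5 (33721674 to 33737068), Cntn1 on the plus strand of chromosome 15 (92051165 to 92341967) and S100a1 on the minus strand of chromosome 3 (90511034 to 90514392). Exons of Axin2, Prox1 and Fgfr3 overlap an annotated gene on the other strand. Whether counting used strand is not given in the sources used here, and these overlapping genes had 0, 0 and 3 UMIs in all cells.

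RefSeq (GRCm38.p6) gave promoter windows for 7 of the 8 genes, 11 windows in all, each the 250 bases before a transcript start. They were searched on both strands for CTTTGA, the core letters of sites of TCF and LEF, the factors that beta-catenin acts through. Of the 11 windows, 1 held a match, the first Cntn1 window, with the letters on the other strand at position -59 from the start. Of all 32851 windows of that length, 13.8% held one. The match is a description of letters and not a site in use. The Axin2 window, that of the usual Wnt readout and without a match, and the Cntn1 window, in which capitals mark the match, are shown 5′ to 3′ on the plus strand, at chr11:108920099-108920348 and chr15:92050915-92051164.
Axin2 promoter window: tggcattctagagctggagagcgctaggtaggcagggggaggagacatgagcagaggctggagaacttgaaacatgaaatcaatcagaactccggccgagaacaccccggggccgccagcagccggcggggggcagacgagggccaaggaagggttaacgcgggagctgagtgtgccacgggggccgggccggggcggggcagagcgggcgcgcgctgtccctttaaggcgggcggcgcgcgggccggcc
Cntn1 promoter window: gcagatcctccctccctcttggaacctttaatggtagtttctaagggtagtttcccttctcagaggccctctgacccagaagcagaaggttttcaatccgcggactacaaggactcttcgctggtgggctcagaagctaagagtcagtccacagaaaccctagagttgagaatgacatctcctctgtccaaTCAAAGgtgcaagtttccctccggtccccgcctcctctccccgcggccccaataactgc

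The authors' annotation places 341 of the cells in 9 clusters and leaves 19 without one, of which 17 are GAP cells. Cluster 4 (named WT Supp Cells, 33 cells, 29 of them control) and cluster 7 (Reprogrammed Supp Cells 2, 20 GAP cells) carry supporting cell names, as do the 54 GAP cells of cluster 1 (Reprogammed Sup Cells 1). A GAP cell held a median of 28963 UMIs and a control cell 21280. Clusters 7 and 4 were the shallowest, with medians of 15522 and 13693 UMIs, against 20111 to 34992 in the other clusters. The 17 GAP cells without a cluster were deeper, with a median of 49455 UMIs. Cells without a cluster held 16.1% of the UMIs of GAP cells, 24.1% of those of letter C and 0.37% of those of control cells. They are part of the genotype and letter levels. Shares of cells with a UMI are therefore given with every cell thinned to 8000 UMIs, which left out 0 GAP and 3 control cells. All 10 general supporting cell genes on a list had UMIs in clusters 7 and 4, and their summed level was 7447 CPM in cluster 7 and 8723 CPM in cluster 4, against 2159 to 4578 CPM in the other 7 clusters. Over whole genotypes, GAP cells summed to 3189 CPM of these genes and control cells to 4642 CPM, while 15 hair cell genes summed to 6124 CPM in GAP cells, against 225 CPM in the controls. The part of such cells in the genotype differences was not tested. The label of pillar and Deiters cells was set beside 12 marker genes. Lgr5, Prox1, Fgfr3, S100a1 and Cntn1 are on that list, so it is no independent support. Of the 12, 10 had UMIs in GAP cells and 9 in control cells. In cluster 7, 9 were at 10 CPM or more and in cluster 4, 6, against 5 to 7 in the other clusters. The 9 include Prox1 and Fgfr3, each from 2 cells there, and cluster 4 lies within the range of the others. Emid1, with 59 UMIs in all, was at 87.8 CPM in cluster 7 and 49.3 CPM in cluster 4, against 1.13 CPM or less in the other clusters. Prox1, Fgfr3 and S100a1 were also highest in cluster 7, while the other listed genes with UMIs were highest elsewhere. Hey2 was highest in cluster 8 (121.9 CPM) and Ngfr in cluster 5 (49.6 CPM), with 0 in cluster 7. Cryab was lowest in cluster 4 (157.9 CPM). Npy and Fgf3 had 0 UMIs in all cells, and Hes5 had 0 in control cells. S100a1 alone made 7689 of the 9186 CPM summed over the 12 genes in GAP cells and 4945 of 6048 CPM in control cells. Prox1 had 51 UMIs, in 12 of the 360 cells, and Fgfr3 had 264, in 50 cells. The genes are therefore named singly, and no cluster is called pillar or Deiters cells here.

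Lgr5 differed between the plates of each genotype as well as between the genotypes. It was at 297 and 601 CPM in GAP letters C and D, against 417 and 100.6 CPM in control letters A and B. Control letter A thus lay between the GAP letters, and letter B stood apart at the low end. The GAP over control ratio was 1.69 (1.57 to 1.82). Leaving out letter B brought the log2 ratio to 0.06, leaving out A to 2.10, leaving out C to 1.22 and leaving out D to 0.20. At equal depth, 48.9% and 70.5% of the cells of letters C and D had an Lgr5 UMI, against 42.7% and 20.5% in letters A and B. In all, 59.4% of GAP cells (51.9% to 66.7%) and 31.6% of control cells (24.9% to 39%) had one (exact Clopper-Pearson intervals).

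Lgr6 was higher in both GAP letters than in both control letters. It was at 185.3 and 143.3 CPM in letters C and D, against 126.5 and 33.7 CPM in letters A and B. Letters D (128.6 to 159.1 CPM) and A (111.3 to 143.2 CPM) overlapped in counting error, and letter B was again the lowest. The GAP over control ratio was 2.09 (1.83 to 2.38), with a log2 value of 0.39 if letter B was left out and 2.27 if letter A was. At equal depth 53.3% and 40.9% of the cells of letters C and D had an Lgr6 UMI, against 27% and 7.95% in letters A and B. In all it was 47.2% of GAP cells (39.8% to 54.8%) and 17.5% of control cells (12.2% to 23.9%).

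Axin2 and Wnt9a went the other way. Axin2 was at 67.6 and 82.1 CPM in letters C and D, against 104.3 and 83.3 CPM in letters A and B, a GAP over control ratio of 0.791 (0.686 to 0.914). Letters D and B differed by less than their counting error (71.1 to 94.3 and 71.2 to 96.9 CPM). Wnt9a was at 19.4 and 22.2 CPM in letters C and D, against 38.3 and 32.2 CPM in letters A and B, a ratio of 0.587 (0.454 to 0.758), with letters D (16.6 to 28.9 CPM) and B (24.9 to 41.1 CPM) overlapping in counting error. In sums over all cells, Axin2 and Wnt9a were lower in GAP cells and both R-spondin receptors were higher. Other targets of the pathway, given below, did not all go with Axin2.

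Of the genes known for pillar and Deiters cells, Fgfr3 was at 36.5 and 44.3 CPM in letters C and D, against 9.58 and 14.9 CPM in letters A and B. It was higher in both GAP letters, with a ratio of 3.27 (2.39 to 4.56). The share of cells with a UMI differed less, at 11.7% of GAP cells (7.37% to 17.3%) and 8.47% of control cells (4.82% to 13.6%), and these intervals overlap. Without the GAP cell with most Fgfr3 UMIs, the GAP level was 32.4 CPM. Prox1 had 25 and 7 UMIs in letters C and D, against 19 and 0 in letters A and B. Its GAP level of 5.96 CPM and control level of 4.75 CPM (ratio 1.26, 0.69 to 2.35) could not be separated at this depth.

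Cntn1 was at 277 and 204 CPM in letters C and D, against 377 and 504 CPM in letters A and B, so both GAP letters lay below both control letters, with a ratio of 0.553 (0.514 to 0.594). S100a1 was at 7115 and 8378 CPM in letters C and D, against 4813 and 5074 CPM in letters A and B, so both GAP letters lay above, with a ratio of 1.55 (1.53 to 1.58). S100a1 had a UMI at equal depth in 99.4% of GAP cells and in all control cells that could be thinned, so its difference was one of level and not of the share of cells. Cntn1 had one in 40% of GAP cells (32.8% to 47.6%) and 70.6% of control cells (63.3% to 77.2%).

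**Figure D1:**
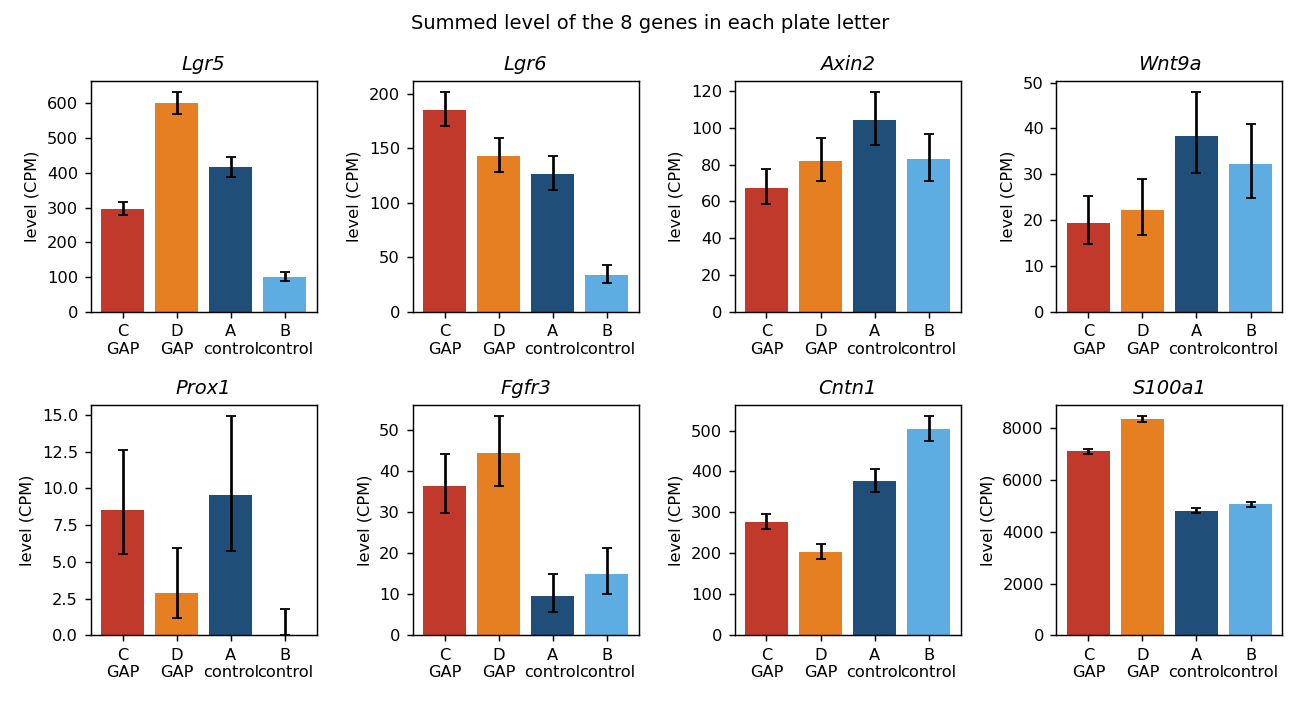
Each panel shows 1 gene, with its summed level in CPM on the vertical axis (from 0, with a scale of its own) in GAP letters C and D and control letters A and B, and error bars for the exact Poisson 95% interval. Lgr5 in letter A (417 CPM) lies between letters C (297 CPM) and D (601 CPM), while Lgr6, Fgfr3 and S100a1 are higher and Axin2, Wnt9a and Cntn1 lower in both GAP letters than in both control letters.

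Such differences were also frequent among all genes. Of the 8 genes, 3 were higher (Lgr6, Fgfr3 and S100a1) and 3 lower (Axin2, Wnt9a and Cntn1) in both GAP letters than in both control letters. Of the 10152 genes at 10 CPM or more in either genotype, 33.7% were higher and 23.5% lower in that way. Of the 7 genes that reached 10 CPM in either genotype, all but Prox1, 2 were at least 2-fold higher in GAP cells on the log2(CPM + 1) scale (Lgr6 and Fgfr3) and 0 were 2-fold lower. Of all genes, 13% were 2-fold higher and 6.61% 2-fold lower. With cells thinned to 8000 UMIs, 1 was higher (Fgfr3) and 1 lower (Cntn1, log2 ratio -1.02), and Lgr6 had a log2 ratio of 0.92.

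The clusters highest for Lgr5 and for Lgr6 were different ones. Lgr5 was highest in cluster 3 (WT Cells 2), at 998 CPM (935 to 1064), and in cluster 2 (Reprogrammed Hair Cells), at 776 CPM (731 to 823). Clusters 7 (357 CPM), 1 (317 CPM) and 4 (278 CPM) came next, each overlapping its neighbour in counting error. Cluster 5 followed at 77.3 CPM, and clusters 0, 6 and 8 held 31 to 41.8 CPM. Single cells varied widely inside a cluster. The 18 cells of cluster 3 in letter A ran between 0 and 5165 CPM with a median of 509 CPM, and the 31 cells of cluster 2 in letter D between 0 and 5472 CPM with a median of 809 CPM.

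Lgr6 was highest in cluster 7, at 769 CPM (679 to 868), and next in cluster 4, at 552 CPM (490 to 621). Cluster 5 (194 CPM), cluster 1 (135.2 CPM), cluster 2 (85.8 CPM) and cluster 8 (46.5 CPM) followed, each apart from the next by more than counting error. Cluster 3, where Lgr5 was highest, was lowest for Lgr6 at 4.26 CPM. Every one of the 20 cells of cluster 7 had an Lgr6 UMI, with 195 to 2339 CPM in letter C (median 573) and 101.7 to 2100 CPM in letter D (median 615). At equal depth an Lgr6 UMI was found in 95% of cells of cluster 7 and 72.7% of cluster 4, against 5.95% in cluster 0 and 5.88% in cluster 3. These classes were made by the authors from the same cells, so a cluster's own levels are a description and no test.

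Axin2 and Wnt9a had another order. Axin2 was highest in clusters 6 (150.3 CPM) and 0 (109.6 CPM) and lowest in cluster 4 (23.7 CPM, 12 UMIs), and neighbours in that order overlapped in counting error. Cluster 7 stood in the middle at 81.9 CPM. Wnt9a was highest in cluster 0 (46.8 CPM) and had 1 UMI in cluster 4, where 0 of 33 cells had one at equal depth, which by the limit of 3 counts allows a share of cells with a UMI at that depth of up to 9.09% (exact upper limit 10.6%). The cluster with the second highest Lgr6 level was therefore the lowest for Axin2 and Wnt9a.

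Prox1 and Fgfr3 in cluster 7 each came from a pair of cells. Prox1 had 19 UMIs there, all in 2 cells of letter C, and 0 in the 11 cells of letter D. Fgfr3 had 68 UMIs, 42 in a cell of letter C and 26 in a cell of letter D, and 82.4 CPM without the first against 199 CPM with it. Elsewhere Fgfr3 was at 63 CPM in cluster 2, 42.3 CPM in cluster 5 and 1.97 to 22.8 CPM in the other 6 clusters, and was lowest in cluster 4 with 1 UMI. Prox1 outside cluster 7 was at 12.8 CPM or less in each cluster, and at 0 UMIs in clusters 6 and 8.

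Cntn1 was highest in clusters 0 (759 CPM), 8 (585 CPM) and 6 (496 CPM) and lowest in clusters 3 (66 CPM) and 2 (36.7 CPM), where Lgr5 was highest. Of its 54 UMIs in cluster 7, 44 came from 1 cell, and without that cell the level was 31.7 CPM against 157.9 CPM with it. S100a1 was highest in clusters 7 (11381 CPM), 1 (9236 CPM) and 2 (7793 CPM), which hold GAP cells alone, and next in cluster 4 (6926 CPM). It was lowest in clusters 3 (3728 CPM) and 8 (2484 CPM).

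**Figure D2:**
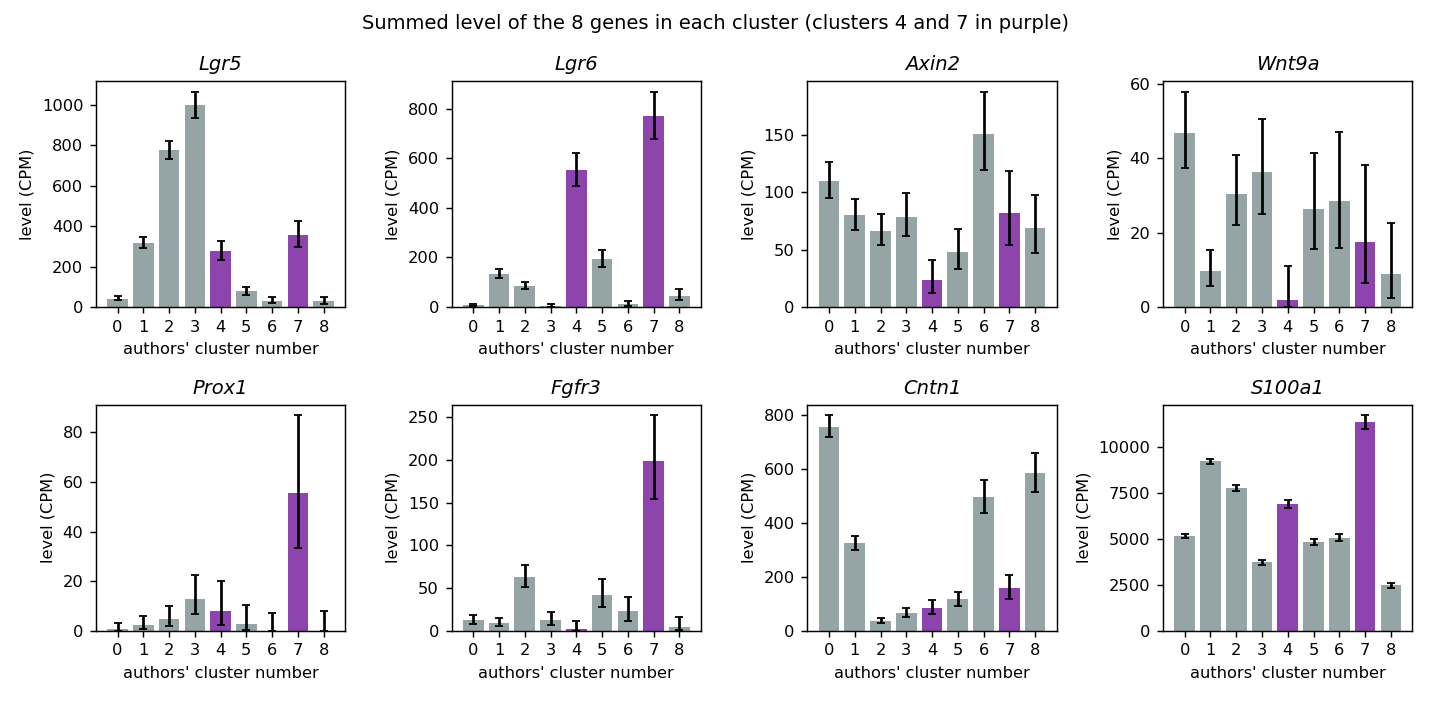
Each panel shows 1 gene, with its summed level in CPM on the vertical axis (from 0, with a scale of its own) against the authors' cluster number, and error bars for the exact Poisson 95% interval. Clusters 4 and 7, in purple, are the highest for Lgr6 (552 and 769 CPM), while Lgr5 peaks in clusters 2 and 3 and Cntn1 in cluster 0.

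**Figure D3:**
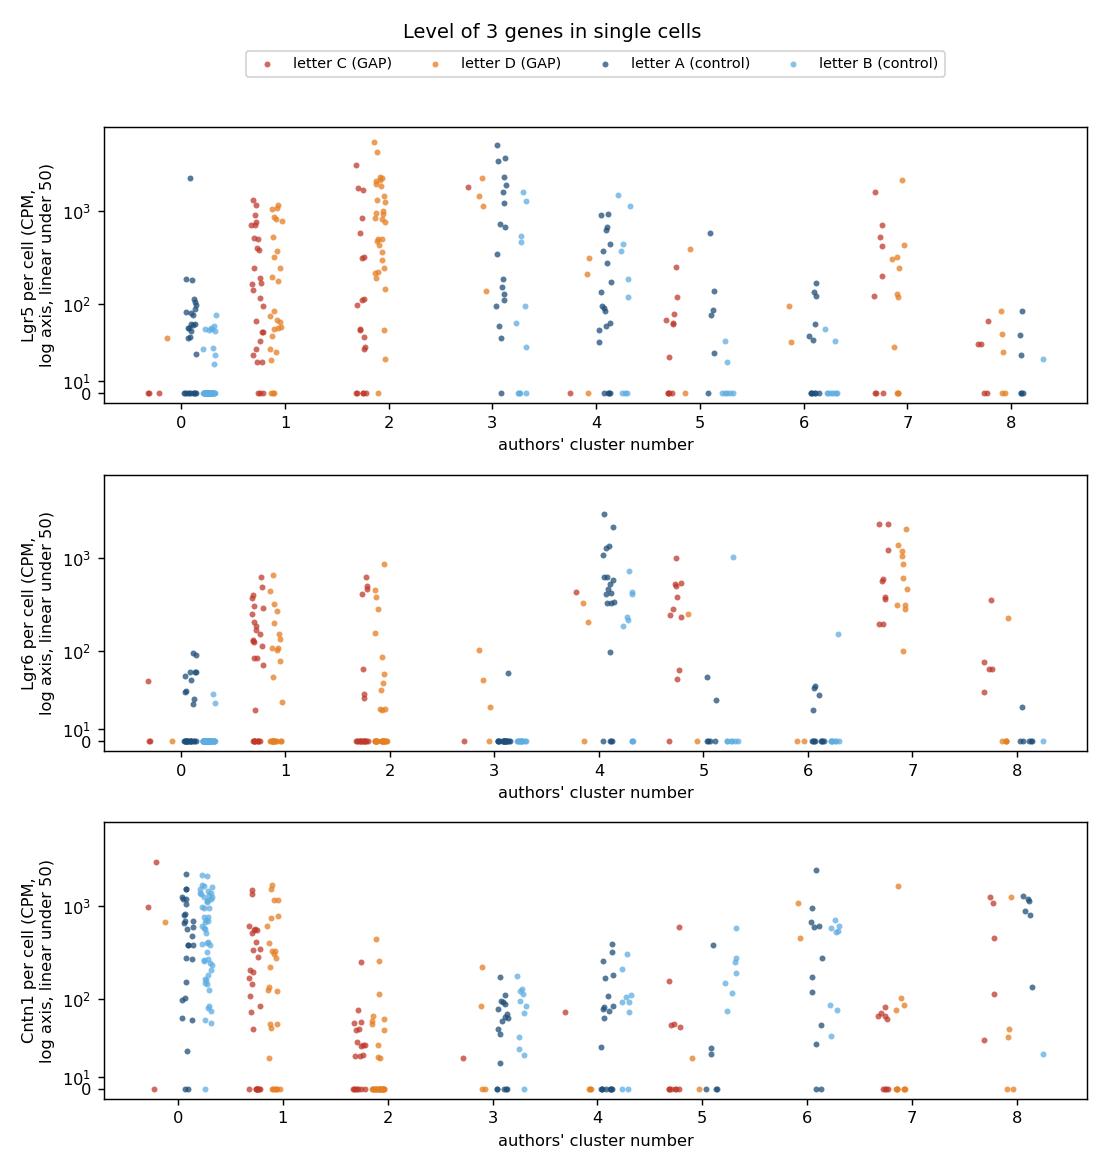
Each point is 1 cell of a cluster, with its level of Lgr5, Lgr6 or Cntn1 in CPM on a log axis that is linear under 50, and colours for the 4 letters. All 20 cells of cluster 7 lie above 0 for Lgr6, while Lgr5 cells of cluster 3 in letter A reach 5165 CPM and those of letter B reach 1582 CPM.

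Set against the other cells of its genotype, cluster 7 was higher for Lgr6, 769 against 125.2 CPM, a ratio of 6.15 (5.30 to 7.11). Control cells of cluster 4 had 582 CPM of Lgr6 against 14.7 CPM in the other control cells, a ratio of 39.6 (29.4 to 54.4). Lgr6 was also higher in both clusters with each letter of the genotype left out in turn (log2 2.38 to 5.74). Lgr5 did not set these clusters apart: the ratio was 0.811 (0.670 to 0.973) for cluster 7 and 1.17 (0.97 to 1.41) for cluster 4. For cluster 4 the Lgr5 levels were 416 against 79.4 CPM without letter A, and 250 against 450.2 CPM without letter B, which are opposite directions.

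Cluster 4 was lower than the other control cells for Cntn1, 91.5 against 486 CPM, or 5.31-fold lower (3.91 to 7.40), and for Axin2, 26.2 against 102.5 CPM, or 3.92-fold lower (2.22 to 7.65). The Axin2 log2 ratio there was -1.93, and -0.85 without letter A. Wnt9a and Fgfr3 had 1 UMI each in control cells of cluster 4, against 140 and 48 UMIs in the other control cells. Of the 7 genes measured at 10 CPM or more, 1 was 2-fold higher and 4 were 2-fold lower in cluster 4, against 15.2% and 19.7% of all genes. In cluster 7, 3 of 8 were 2-fold higher than in the other GAP cells (Lgr6, Prox1 and Fgfr3) and 0 were lower, against 14.3% and 21.2% of all genes. Of these 3, Prox1 and Fgfr3 rest on the pairs of cells named above, Prox1 reached 10 CPM through cluster 7 alone, and without letter C the Prox1 difference reversed (0 UMIs in cluster 7 against 3.12 CPM). S100a1 was higher in both, with a ratio of 1.53 (1.48 to 1.58) in cluster 7 and 1.38 (1.33 to 1.44) in cluster 4.

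Between the supporting cell clusters of the genotypes, the difference in Axin2 rested on letter A. Axin2 was at 81.9 CPM in cluster 7 and 26.2 CPM in control cells of cluster 4, a ratio of 3.13 (1.54 to 6.76) from 28 and 12 UMIs. Within cluster 4 it was at 18.1 CPM in letter A and 47.1 CPM in letter B, and without letter A the ratio was 1.74 (0.706 to 5.13), which is under 2-fold and includes equality. S100a1 was at 11381 CPM in cluster 7 and 6545 CPM in cluster 4, a ratio of 1.74 (1.66 to 1.82). Lgr6 had a ratio of 1.32 (1.11 to 1.57), and the Lgr5 ratio of 1.20 (0.935 to 1.55) included equality. Of 8 genes, 4 were 2-fold higher in cluster 7 and 0 lower, against 22.6% and 17.7% of all genes. Beside Axin2 these were Fgfr3, Prox1 and Wnt9a, which were at 2.18, 8.72 and 2.18 CPM in control cells of cluster 4 and so reached 10 CPM through cluster 7 alone, each from 2 cells there. Nothing is therefore read from the count of 4. Wnt9a had 6 UMIs, 5 of them in 1 cell, against 1 (ratio 8.05, 0.977 to 370). Of the 15 hair cell genes, 14 had UMIs in cluster 7 and 9 in cluster 4, with sums of 2118 and 248.6 CPM, and the part of such genes in these differences was not tested. All 3 of 3 erythroid genes had UMIs in cluster 7, with a sum of 1141 CPM, and none had any in cluster 4. Of these 390 UMIs 384 were in 1 cell of letter C, and 0 were in the cells of letter D. Over all clusters, 57 of the 92 cells of letter C had a UMI of these genes, against 1 of the 88 of letter D. The part of this in the differences between letters C and D was not tested.

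**Figure D4:**
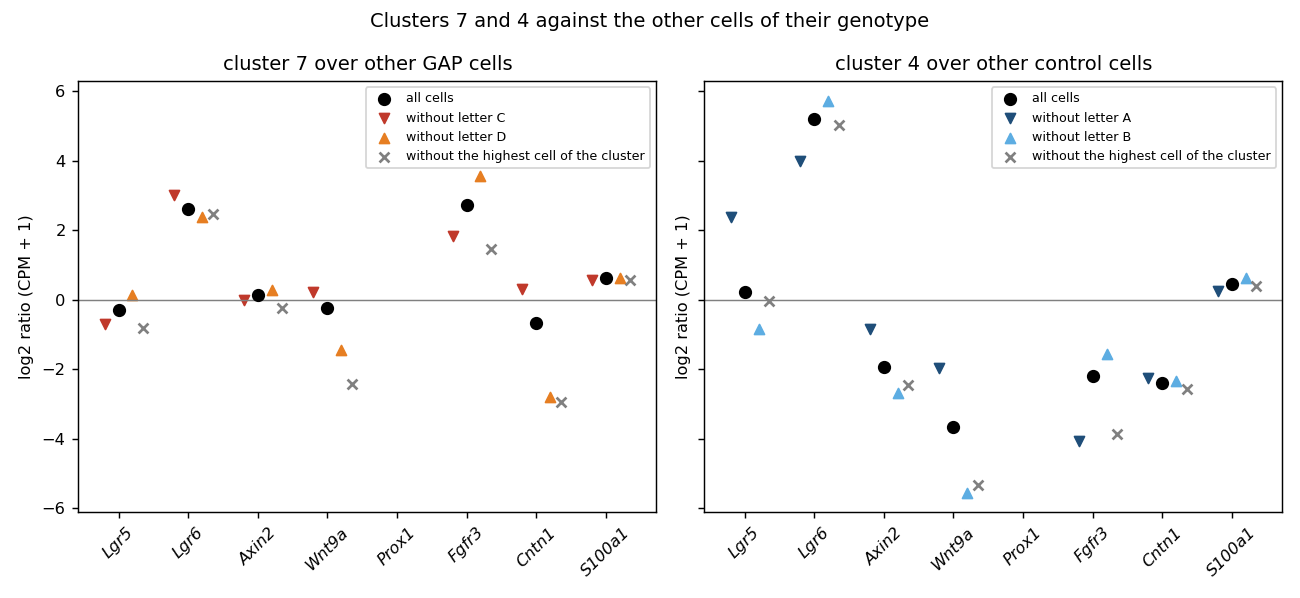
The vertical axis is the log2 ratio on the CPM + 1 scale of cluster 7 over the other GAP cells (left) and of cluster 4 over the other control cells (right) for 7 genes, with all cells (black), without a letter (triangles) and without the cluster's highest cell (crosses). Prox1 is left out, with 2 positive cells in cluster 7 and 1 in control cells of cluster 4. Lgr6 stays above 2 in all of them, Lgr5 lies on both sides of 0, and Wnt9a and Fgfr3 in cluster 4 rest on 1 UMI each.

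Whether the letter differences followed the mixture of cells was then examined. Letter A held 20 cells of cluster 4 among 91 and letter B 9 among 89, which were 16.7% and 6.31% of their UMIs. Letter A also held 28 cells of cluster 0 and letter B 52. Letters C and D had 10 and 14 cells of clusters 4 and 7, 5.50% and 9.39% of their UMIs, and 20 and 31 cells of cluster 2. Each letter ratio was computed as measured, with only the cluster mixture changed, and with the same mixture and only the levels within clusters changed, the cells without a cluster forming a class of their own.

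The Lgr5 difference between control letters was mostly inside clusters. The A over B ratio was 4.14 (3.55 to 4.85) as measured, 1.32 from the mixture alone and 2.90 at the same mixture. Cluster 3 gave 257 of the 316 CPM between letters A and B, and 211 of these came from its level, 1416 CPM in A and 373 CPM in B. Of the 641 Lgr5 UMIs of cluster 3 in letter A, 197 were in 1 cell, and without it the level there was 1071 CPM. Lgr5 was also higher in A than in B within cluster 0 (112.2 and 10.6 CPM, with 36 of the 63 UMIs of A in 1 cell) and cluster 5 (147.3 and 10.4 CPM). It was lower in A within cluster 4 (250 and 416 CPM), where 28 of the 53 UMIs of B were in 1 of 9 cells. Without the highest cell of each letter the levels there were 218.2 CPM in A and 230.9 CPM in B. Cluster 4 gave 15.6 CPM of the difference. With only clusters 4 and 7 set against all other cells, the mixture alone gave a ratio of 1.02.

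For Lgr6 the A over B difference lay almost wholly in cluster 4. The ratio was 3.75 (2.86 to 4.98) as measured, 2.12 from the mixture alone and 1.97 at the same mixture. Cluster 4 gave 98.6 CPM to a total difference of 92.8 CPM, 50.9 of it by its size and 47.7 by its level of 697 CPM in A and 283 CPM in B. Its cells ran between 0 and 2983 CPM in A (median 445) and between 0 and 735 CPM in B (median 219). All other control cells together were at 12.1 CPM in A and 16.9 CPM in B, but 28 of the 32 UMIs of B were in 1 cell, without which its level was 2.15 CPM. Of the 7 genes measured, Lgr5 and Lgr6 were 2-fold higher in A than in B and 0 were lower, against 8.11% and 5.19% of all genes. Prox1 had 19 UMIs in A, in 4 cells with 12 of the UMIs in 1 of them, against 0 in B.

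For Cntn1 the mixture alone gave most of the difference between the control letters. Its A over B ratio was 0.748 (0.680 to 0.823) as measured, 0.790 from the mixture alone and 0.977 at the same mixture. Cluster 0, which held a smaller share of letter A than of letter B, gave -246 CPM, of which -196 came from its size. S100a1 differed little between A and B in any form (0.949, 0.965 and 0.985). Axin2 and Wnt9a had mixture-alone ratios below 1 (0.880 and 0.770) and same-mixture ratios above 1 (1.44 and 1.59), so mixture and level went opposite ways. The same-mixture ratio was closer to 1 than the measured one for 4 of the 7 genes with UMIs in both letters.

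Between the GAP letters, Lgr5 had a C over D ratio of 0.494 (0.453 to 0.537) as measured, 0.789 from the mixture alone and 0.572 at the same mixture. Cluster 2 gave -247 CPM, split into -119 by its size and -128 by its level of 496 CPM in C and 960 CPM in D. Its cells had a median of 74.3 CPM in C and 809 CPM in D. Cells without a cluster, 14 in C and 3 in D, were at 221 and 996 CPM, and gave -118.8 CPM by their level. Of the Lgr5 UMIs of GAP cells without a cluster, 43% were in 1 cell of letter D. The level of these GAP cells was 365 CPM with that cell and 223 CPM without it. With all cells lacking a cluster left out, the same-mixture log2 ratio was -0.51 and not -0.80. Clusters 7 and 4 together gave -16.1 of the -304 CPM. Of the 7 genes measured, 1 (Lgr5) was 2-fold lower and 0 were higher, against 3.67% and 5.11% of all genes.

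Lgr6 differed less between the GAP letters, with a C over D ratio of 1.29 (1.13 to 1.48), 1.02 from the mixture alone and 1.37 at the same mixture. In cluster 7 the Lgr6 intervals overlapped, 801 CPM in C (663 to 959) and 745 CPM in D (629 to 877). Cntn1 had a ratio of 1.36 (1.22 to 1.53) and S100a1 of 0.849 (0.833 to 0.866), with same-mixture ratios of 1.22 and 0.930. Without the cells lacking a cluster, the same-mixture ratio of Cntn1 was 0.940. Between C and D the same-mixture ratio was closer to 1 for 5 of the 8 genes. Size and level of a class were read from the same cells, so a cell placed in another cluster would move both parts.

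**Figure D5:**
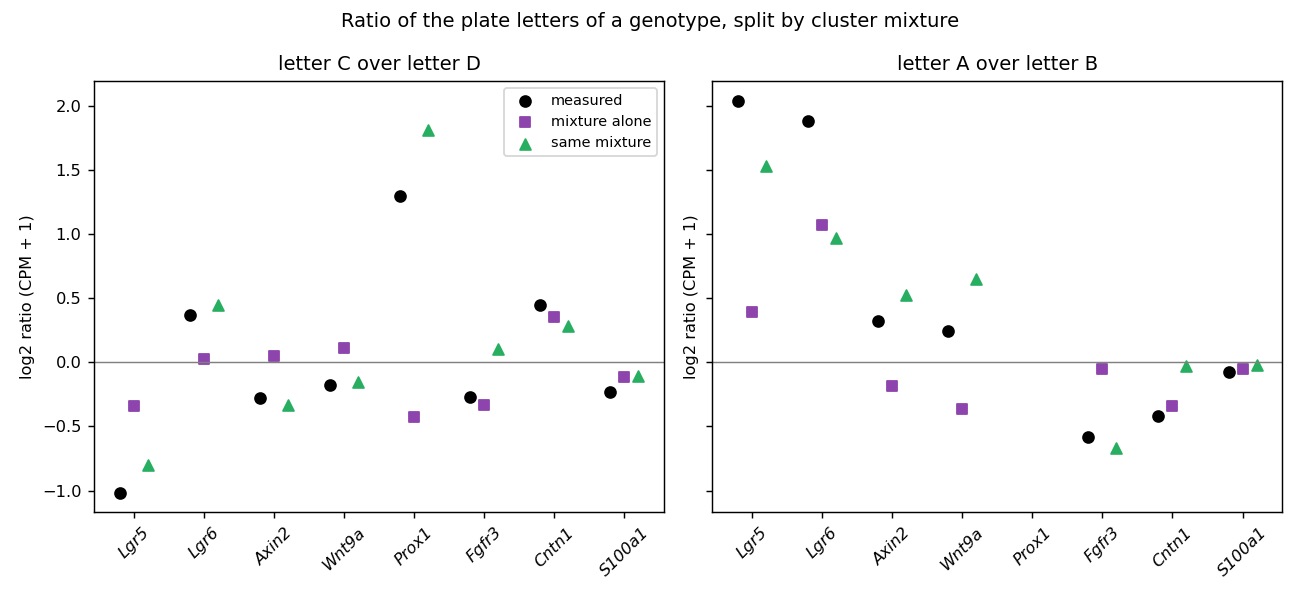
The vertical axis is the log2 ratio on the CPM + 1 scale of letter C over D (GAP, left) and letter A over B (control, right), as measured (circles), from the cluster mixture alone (squares) and at the same mixture (triangles). Prox1 is left out on the right because letter B had 0 UMIs. For Lgr5 the triangles lie closer to the circles than the squares do in both panels, and for Cntn1 in letter A over B the triangle lies near 0.

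Clusters 0, 3, 4, 5, 6 and 8 hold both genotypes, and of these, clusters 5 and 8 hold the most GAP cells. Cluster 5 (Reprogrammed Unknown 1) has 13 GAP and 13 control cells. Its cells differed widely in S100a1, with quartiles of 886 and 8334 CPM around a median of 1566 CPM. Whether its GAP and control cells are of the same kind was not tested. S100a1 was at 1603 CPM in GAP cells of cluster 5 (1796 and 795 CPM in C and D) and 8211 CPM in its control cells (7062 and 9066 CPM in A and B), or 5.12-fold lower (4.68 to 5.62), the reverse of the whole genotypes. In clusters 0, 4, 6 and 8 it was higher in GAP cells: 9906 against 4856 CPM, 10564 against 6545 CPM, 11215 against 4502 CPM and 2873 against 2024 CPM. Only 2 to 10 GAP cells lie in each of these 4, and in cluster 3 the levels were 2982 CPM in 5 GAP cells and 3848 CPM in 29 control cells.

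Lgr6 in cluster 5 was at 293 CPM in GAP cells, with a UMI at equal depth in 10 of 13, and 89.8 CPM in control cells, with a UMI in 1 of 12. The ratio was 3.27 (2.16 to 5.08), and 28 of the 30 control UMIs came from 1 cell of letter B. Cntn1 there had 56.9 CPM in the GAP cells and 179.5 CPM in the control cells, 3.15-fold lower (1.87 to 5.52), and Axin2 at 25.6 and 71.8 CPM. Of the 7 genes measured, 1 was 2-fold higher and 3 were lower, against 24.4% and 26% of all genes. In cluster 8, with 10 GAP and 7 control cells, Lgr6 had 20 UMIs against 1 and Axin2 was at 110.5 against 19.3 CPM. There 2 of 5 genes measured were 2-fold higher and 0 lower, against 28.6% and 20.9% of all genes.

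Within cells, Lgr5 and Lgr6 overlapped in part. At equal depth 62 cells had both, which is 38% of the cells with Lgr5 and 53.4% of those with Lgr6. Both shares lay above the share of all cells with the other gene. In cluster 7 all 13 cells with Lgr5 also had Lgr6, in cluster 4 it was 14 of 19, and in cluster 3 it was 1 of 24. In each of these clusters that was close to the share of all its cells with an Lgr6 UMI. Over the 20 sets formed by a cluster within a letter (at least 5 cells each), the levels of Lgr5 and Cntn1 had a Pearson r of -0.70 on the log2 scale, and Lgr5 and Lgr6 of 0.21. Per cell, Spearman's rho over 360 cells was -0.40 for Lgr5 with Cntn1 and 0.13 for Lgr5 with Lgr6. These sets share plates and depth, and the values are descriptions.

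Among 9573 genes at 10 CPM or more over all cells, the pattern of Lgr6 over those 20 sets was most like that of Slitrk6 (r = 0.87) and Jag1 (0.84), a Notch ligand of cochlear supporting cells, and that of Lgr5 most like Ubtd1 (0.83). S100a1 was most like S100a13 (0.91), a neighbour in its gene family, and Tmprss3 (0.88), a serine protease. For Cntn1 the closest was Fndc7 (0.83), for Axin2 Usp3 (0.83), for Wnt9a Rap2b (0.74) and for Fgfr3 Fancm (0.84).

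The wider pathways were followed with lists of Wnt, FGF and S100 genes, counted at 2-fold among members at 10 CPM or more, against the same 13% and 6.61% of all genes in GAP over control cells. Of 6 measured Wnt ligands 2 were higher and 0 lower, among them Wnt7a (84 CPM in GAP, 41.2 CPM in control cells). Of 11 receptors 1 was higher, the Frizzled receptor Fzd4 at 193 and 86.2 CPM, and 1 lower. Of 6 genes of the R-spondin axis, Lgr6 was higher and 1 was lower. Of 4 genes listed as Wnt inhibitors, the co-receptor Kremen1 among them, Dkk3 was higher at 48.8 and 22.7 CPM. Sfrp1, which binds Wnts, was lower at 658 and 1371 CPM. None of 16 signal transduction genes passed 2-fold in either direction, and of 8 Wnt targets 2 were higher and 1 lower. The targets past 2-fold were Nkd1 (64.7 CPM in GAP, 19.7 CPM in control cells), Ccnd1 (138.3 and 3.75 CPM) and Tnfrsf19 (32.6 and 115.5 CPM). They were named after their values were seen. Among the 4 targets with most UMIs, Rnf43 and Znrf3 went with Axin2, lower in both GAP letters than in both control letters. Neither passed 2-fold over whole genotypes. Rnf43 had 77.8 and 132.2 CPM in letters C and D, against 180.9 and 175.5 CPM in letters A and B. Znrf3 had 66.55 and 78.4 CPM, against 92.2 and 109.6 CPM. The remaining gene, Lgr5, was higher in the GAP sum, with letter A between letters C and D. The median log2 ratios were 0.38 for ligands, -0.27 for receptors, -0.42 for the R-spondin axis, -0.18 for inhibitors, 0.08 for transduction and 0.21 for targets, against 0.10 for all genes.

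Outside the Wnt lists, 3 of 14 measured FGF genes were higher and 1 lower, the ligand Fgf9 (41 CPM in GAP, 283 CPM in control cells). Of 7 measured S100 genes 4 were higher and 0 lower, S100a13 with 721 and 243 CPM and S100a11 with 252.3 and 99.97 CPM among them. Their median log2 values were 0.25 and 1.16. Cntn1 was the only 1 of 6 contactins at 10 CPM or more.

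Some Wnt genes beside Lgr6 were higher in both cluster 7 and cluster 4. Kremen1, a co-receptor of Dickkopf proteins, was at 758 CPM in cluster 7 against 155.2 CPM in the other GAP cells, and at 1260 CPM in cluster 4 against 226 CPM in the other control cells. Dkk3 was at 585 against 12.3 CPM in cluster 7 and 183 against 1.98 CPM in cluster 4. Fzd4 was at 544 against 168.8 CPM in cluster 7 and 353 against 51.7 CPM in cluster 4. These 3, each among the 4 members of its list with most UMIs, are shown because they were higher in both. Of 12 measured receptors 3 were higher and 1 was lower in cluster 7, and of 11 in cluster 4, 1 was higher and 2 were lower. On the list of inhibitors, which holds Kremen1 and Dkk3, 2 of 5 measured genes were higher and 0 lower in cluster 7. In cluster 4, 2 of 4 were higher and 1 was lower. Of 6 measured ligands, 0 were higher in either cluster, while 1 was lower in cluster 7 and 4 were lower in cluster 4. Of all genes, 14.3% were higher and 21.2% lower in cluster 7, and 15.2% and 19.7% in cluster 4. Wnt7a had 64.4 against 85.4 CPM in cluster 7, and 2.18 CPM (1 UMI) in cluster 4 against 46.3 CPM in the other control cells. Fgfr1 was at 512 against 781 CPM in cluster 7 and 65.4 against 535 CPM in cluster 4, where Fgfr3 was low too.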

How the data were processed

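Exon UMI counts per gene and cell were deposited by the authors with no normalization, beside an annotation with a cluster number and name per cell. The tools named by the submitters' processing notes are STAR and HTSeq, and the build is mm10. Versions and the annotation release are not given in the labels, nor are UMI collapsing and strand. The 360 columns all matched a sample title, and no pair was identical. A cell held 6985 to 60218 UMIs. No cell was filtered and no doublet caller was run. Groups come from the genotype label, and letters from the titles.

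Counts were summed over cells and divided by the total (CPM). Intervals are exact Poisson for levels, conditional binomial for ratios and Clopper-Pearson for shares, at 95% and for counting error only. The limit for 0 counts is 3 UMIs over the set. Each genotype being 1 sample, p-values are not used. A gene counts as called at 2-fold on log2(CPM + 1) with 10 CPM or more in either set. Thinning to 8000 UMIs was a single seeded draw without replacement. The summed level of a letter was split into the share of its UMIs and the level in each cluster. The computation was tested on simulated counts. Named genes are the 8 members, the most alike genes over the 20 sets (3 per member with at least 100 UMIs, of which some are printed) and up to 4 genes with most UMIs per list. Outside this rule, Nkd1, Ccnd1, Tnfrsf19, Rspo2, Lgr4 and single cell type marker genes were named after their values were seen. The members and all lists were chosen with earlier results of these data known. Other settings tried included averaging per-cell CPM, TMM factors (edgeR 4.0.16) and median-of-ratios factors, thinning to 8000 or 4000 UMIs, at least 15000 UMIs per cell, cells with a cluster only, a 10 CPM pseudocount, leaving out each letter, no filter or one at 50 CPM, and other classes in the split. Leaving out the cell with most UMIs, and leaving out each letter from cluster 7 over cluster 4, were added after seeing the data. Python 3.11.15 with scipy 1.17.1 was used.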

Additional observations from a re-analysis of the deposited data

How the results depend on the processing

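Lgr6 and Fgfr3, the 2 genes called 2-fold higher in GAP cells, became 1 under TMM factors, median-of-ratios factors, thinning to 8000 UMIs, a pseudocount of 10 CPM, without letter B and without the cell with most UMIs, in each case because Lgr6 fell short of 2-fold (log2 ratio 0.39 to 1.0). Without letter C the 2 were Lgr5 (1.22) and Fgfr3. In place of 0, 1 gene was 2-fold lower (Cntn1) under thinning, without letter A and without letter C. Of letter A over B, 1 gene (Fgfr3) was lower without its highest cell, in place of 0. Of letter C over D, 1 gene (Prox1) was higher with the mean of per-cell CPM and with thinning, in place of 0. In cluster 4, 2 genes in place of 1 were higher with the mean of per-cell CPM and without letter A. In cluster 7, 1 gene in place of 0 was lower with the mean of per-cell CPM, and 2 without letter D and without the highest cell. The Prox1 log2 ratio of cluster 7 reversed to -2.04 without letter C, where it has 0 UMIs, and that of cluster 7 over cluster 4 to -3.28. The same-mixture log2 ratio of Lgr5 for A over B was 1.53, and 1.23 with cells weighted alike and 1.85 with clusters 4 and 7 against the rest. For C over D it was -0.80, and -0.51 with cells lacking a cluster left out and -1.03 with clusters 4 and 7 against the rest. With a filter of 50 CPM, 2.96% and 1.69% of all genes were called higher and lower for A over B and 2.24% and 0.978% for C over D. With no filter it was 14.4% and 8.81%, and 9.67% and 8.29%. At 50 CPM, 13.3% of all genes were lower in cluster 4 and 13.8% in cluster 7. The cause of these shifts was not tested, other than where the construction gives it (fewer cells or genes).

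No paired analysis was possible because the labels name no animals and each letter holds 1 genotype. No result comes from a test: each genotype is 1 sample, and replicate numbers only name cells. Prox1, Fgfr3 and Wnt9a rest on few UMIs, and differences between animals were not measured.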

Other observations

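Ccnd1, which encodes the cell cycle protein cyclin D1 and stands in the list of Wnt targets, was singled out after its values were seen. It was at 204 and 58.7 CPM in GAP letters C and D, against 3.02 and 4.46 CPM in control letters A and B. In sum, 742 UMIs in GAP cells stood against 15 in control cells, while Axin2 was lower in GAP cells. Among clusters it was highest in clusters 8 and 1, and it was at 14.6 CPM in cluster 7 and 5.92 CPM in cluster 4, the clusters with most Lgr6. In the 19 cells without a cluster, 17 of them GAP cells, it was at 340.5 CPM.

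Fgf9 was highest in cluster 3 at 961 CPM, the cluster with most Lgr5, and was at 377 CPM in letter A against 191 CPM in letter B, the order also seen for Lgr5. Rspo2, an R-spondin ligand chosen after its values were seen, was at 7.27 CPM in GAP cells (39 UMIs) and 59.5 CPM in control cells (238 UMIs).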
